A study of Mus musculus with 5 samples.

Results

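The genes described here are the 70 histone genes of the deposited mouse table, out of 15180 genes. They were chosen by symbol: the cluster genes, which GENCODE calls Hist, and the variants, whose genes lie outside the clusters. Of the 70, 63 are cluster genes (6 of H1, 16 of H2A, 17 of H2B, 11 of H3 and 13 of H4) and 7 are variants (H1f0, H1f10, H2ax, H2az1, H2az2, H3f3a and H3f3b). The symbol rule uses no measured value, but histone genes were taken up as a group after their levels in these libraries were known. The levels and fold changes below are therefore a description of the group, and the counts of genes are given beside the same share over all genes tested.

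The study measured RNA in fibroblasts of pancreatic tumours of KPC mice, a genetically engineered model of pancreatic cancer. After tumours had grown, mice were gavaged for 14 days with LDE225 (n = 2 libraries) or with vehicle (n = 3 libraries). LDE225 blocks Smoothened, a membrane protein needed for Hedgehog signalling. Live cells positive for PDPN and negative for CD45, EpCAM and E-cadherin were sorted from the tumours of both groups. The labels name no alleles, strain or age and do not tie a library to a mouse, so p-values measure only the spread between these libraries, which may be technical. In the groups as labelled, Gli1, a transcription factor gene switched on by Hedgehog signalling, had 22.5 and 14.4 normalised counts in LDE225 libraries, against 315, 463 and 264 in vehicle libraries.

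Histones are the proteins around which DNA is wound: pairs of H2A, H2B, H3 and H4 form the core of a nucleosome, and the linker histone H1 binds the DNA between cores. The cluster genes are used mainly while DNA is copied, when each daughter strand needs new nucleosomes, and their mRNAs end in a conserved stem-loop in place of a poly(A) tail. The stem-loop binding protein SLBP holds this end, and the mRNAs are broken down when DNA synthesis stops. Variant histones come from genes outside the clusters, have introns or a poly(A) tail in most cases, and are made throughout the cell cycle. The libraries were made from RNA depleted of ribosomal RNA without selection for poly(A), a preparation that can hold mRNAs of both kinds.

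The stem-loop is shown first because it is the feature that sets the cluster mRNAs apart and the symbol rule did not use it. A 16-base pattern was searched (GG, then any 2 bases, then C, then a run of 4 T, then any base, then A, then any 2 bases, then GCC). The search covered the 100 bases after the stop codon, on the transcript strand, of protein-coding GENCODE transcripts with an annotated stop codon. The pattern was found in 40 of 63 cluster genes and in 1 of 7 variants, H2ax. Of 14613 other genes of the table with an annotated stop codon, 2 held it (0.0137%). Among the other cluster genes, 13 have under 16 bases of annotated 3′ untranslated region, too few to hold the pattern, and 10 have more. Of these, H3c13 and H1f1 have only 37 and 48 bases. With up to 1 mismatch the pattern was found in 44 of 63 cluster genes, among them H4c1, H4c2, H4c11 and H3c8. The other genes of the table were not searched with a mismatch. The first base of the stem-loop lay between 22 and 59 bases after the stop codon, with a median of 32. The sequence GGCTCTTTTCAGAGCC was the most frequent, in 24 genes, followed by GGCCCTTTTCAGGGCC in 7 and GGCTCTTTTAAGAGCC in 6. The class of histone and the stem went together: all 9 H4 stem-loops and that of H2ax begin with GGCCC, and all 4 of H1, 10 of H2A, 10 of H2B and 7 of H3 begin with GGCTC. The lines below give 1 gene of each cluster class, with the 16 bases of the stem-loop in capitals between 5 flanking bases on each side, and the variant H2ax for comparison.

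H1f2: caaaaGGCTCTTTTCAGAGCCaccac
H2ac4: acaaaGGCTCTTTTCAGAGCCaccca
H2bc12: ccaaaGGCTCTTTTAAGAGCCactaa
H3c2: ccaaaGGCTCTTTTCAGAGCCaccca
H4c6: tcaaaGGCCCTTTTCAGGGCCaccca
H2ax: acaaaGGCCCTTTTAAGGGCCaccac

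In GRCm38 these stem-loops lie at chr13:23739512-23739527 (H1f2, plus strand), chr13:23751572-23751587 (H2ac4, plus), chr13:22036300-22036315 (H2bc12, plus), chr13:23752820-23752835 (H3c2, plus), chr13:23551291-23551306 (H4c6, minus) and chr9:44335240-44335255 (H2ax, plus). All are in the 3′ untranslated region of the gene's annotated transcript.

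Cluster histone mRNAs were at lower levels in the LDE225 libraries. Summed over the 63 cluster genes, the level was 7305 and 8330.4 normalised counts in LDE225 libraries, against 13619, 17562 and 10451 in vehicle libraries. Both LDE225 libraries lay below all 3 vehicle libraries, and the LDE225 mean was 0.563 of the vehicle mean. The sum of the 7 variants was 9374 and 10381 in LDE225 libraries, against 9556, 12681 and 10945 in vehicle libraries. LDE225 2 lay above vehicle 1, so the groups overlapped, and the ratio of means was 0.893. Cluster genes made up 0.0665% and 0.0700% of all normalised counts in LDE225 libraries, against 0.141%, 0.162% and 0.0963% in vehicle libraries. In these bulk samples, fewer cells copying their DNA and less histone mRNA per cell cannot be told apart.

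**Figure D1:**
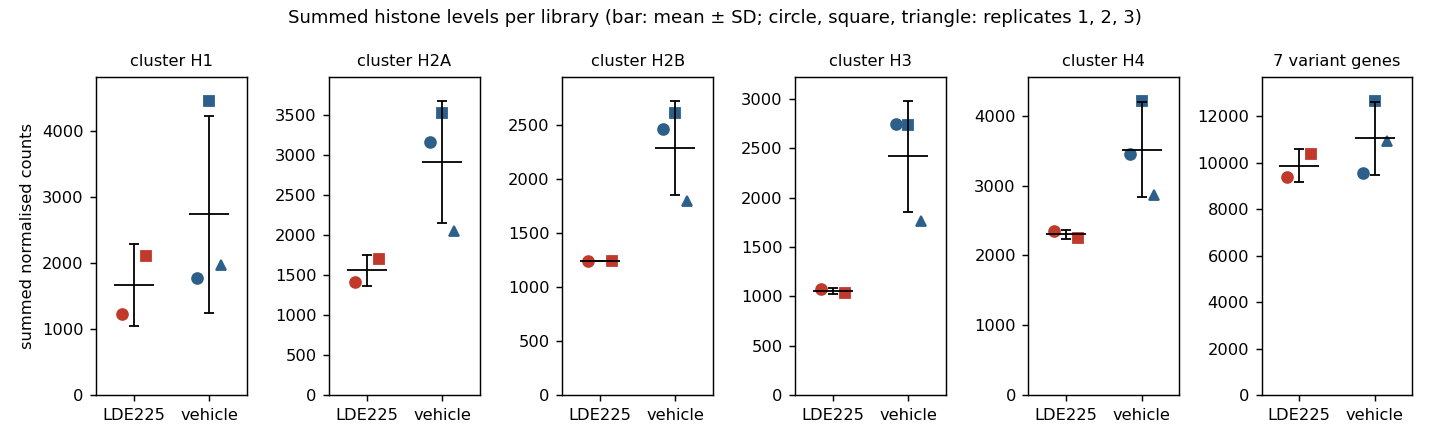
Summed normalised counts of the cluster genes of each histone class and of the 7 variants (y axes, from 0) in LDE225 and vehicle libraries, 1 marker per library, with the mean and SD. The LDE225 libraries lie below every vehicle library for H2A, H2B, H3 and H4, while for H1 and the variants the groups overlap.

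The direction was shared by most cluster genes, though no single histone gene passed the threshold. Of the 70 genes, 66 had a mean of at least 10 normalised counts and were tested; H1f6, H2ac21, H2bu2 and Hist1h2bp were below it, with at most 20.3 in any library. With limma on log2(value + 1) and Benjamini-Hochberg adjustment over 13183 genes, 0 of 66 passed an adjusted p of 0.05, the smallest being 0.0913 (H3c11). Over all genes 0.00759% passed lower and 0.0228% passed higher. At an unadjusted p below 0.05, 41 of 66 histone genes were lower and 0 higher, where 5.71% of all genes were lower and 6.92% higher. edgeR on the recovered reads called 0 histone genes, and DESeq2 on the same reads called 20 lower and 0 higher, where 1.74% of all genes were lower. limma with array weights, which give less weight to libraries that fit less well, called 2 histone genes lower, H3c11 and H3c2, where 0.288% of all genes were lower. The 20 of DESeq2 are all cluster genes: 6 of H2A, 6 of H3, 5 of H4, 2 of H2B and 1 of H1. Of the 59 cluster genes tested, 56 had a negative log2 fold change, where 49.6% of all genes did. For 45 of the 59 both LDE225 libraries lay below all vehicle libraries, where 15.2% of all genes did. Leaving out 1 library at a time gave 46 to 49 of the 59, beside 20.1% to 26.6% of all genes. Dropping a library can only keep or raise these numbers, so they do not test the count of 45. Without LDE225 1 the 59 had a median log2 fold change of -1.06, and without LDE225 2 of -1.14, beside 0.004 and 0.012 over all genes.

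The median log2 fold change of the cluster genes was -1.18, with single genes between -2.28 and 1.10. That of the variants was -0.31, with single genes between -0.71 and 0.03, and that of all genes tested was 0.003. Without vehicle 2 the median of the variants turned to 0.02, and without vehicle 1 it was -0.55; that of the cluster genes stayed between -1.36 and -0.98 under all alternatives. These are differences on the log2(value + 1) scale, which understates the change of genes with low counts. Within the cluster genes, H2A had the lowest median (-1.44 over 15 genes tested), then H1 (-1.26 over 5), H3 (-1.21 over 11), H2B (-0.98 over 15) and H4 (-0.45 over 13). Both LDE225 libraries lay below all vehicle libraries for 10 of 11 H3 genes, 12 of 15 H2A and 11 of 15 H2B. They did so for 9 of 13 H4 and 3 of 5 H1, where 15.2% of all genes did. The classes were not compared by a test.

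**Figure D2:**
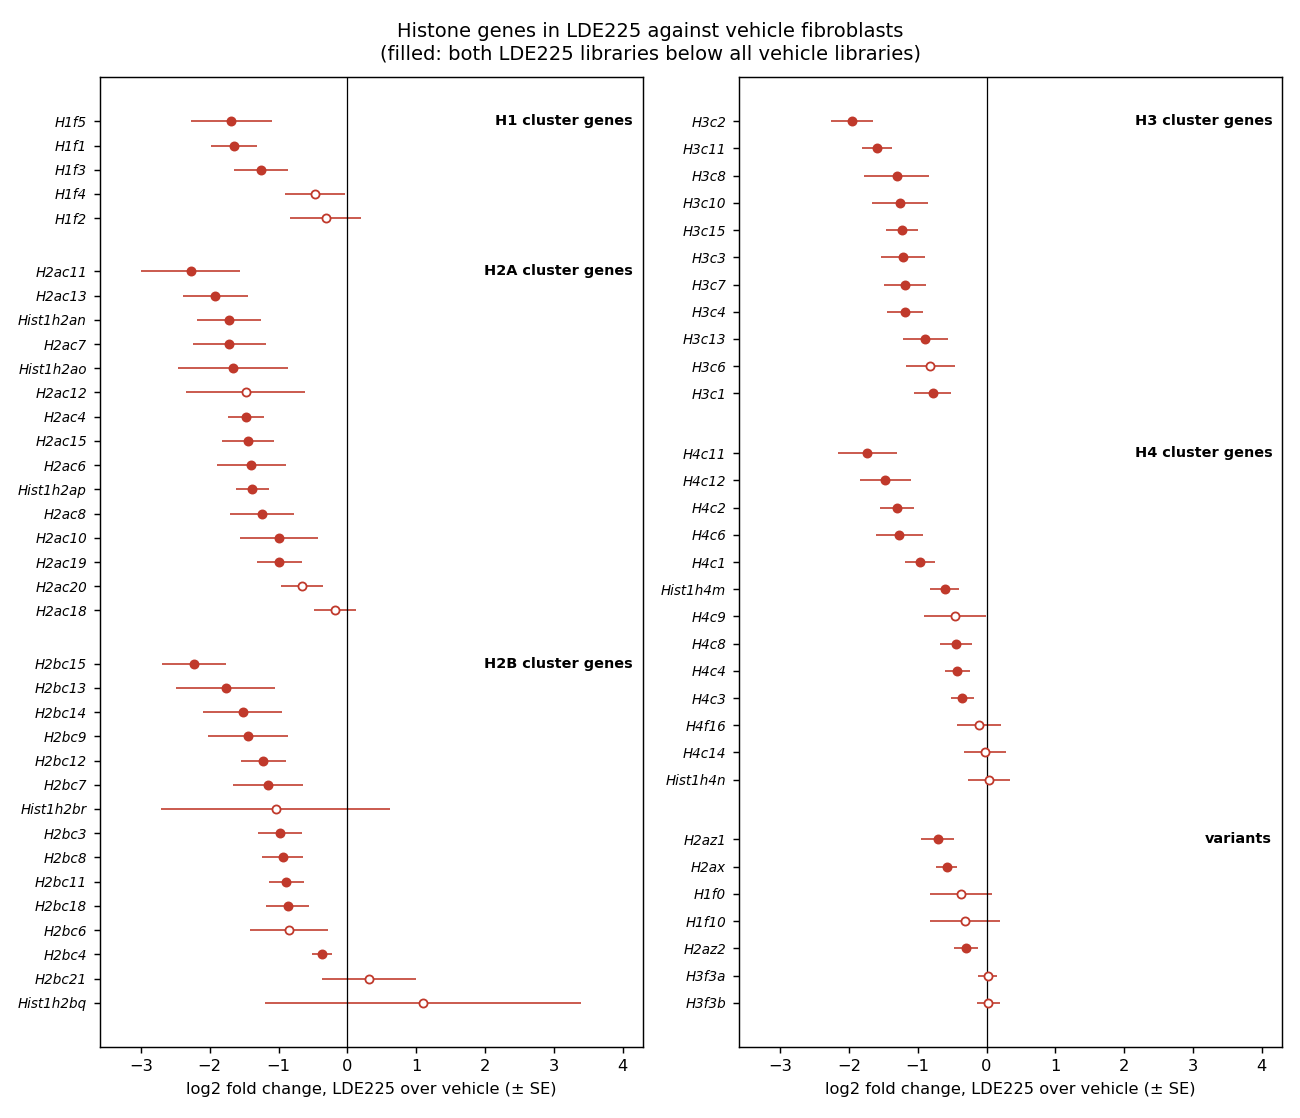
The log2 fold change of LDE225 over vehicle with its standard error (x axis) for the 66 histone genes tested, grouped by class with the cluster genes first and the variants last. Filled circles mark genes whose 2 LDE225 libraries both lay below all 3 vehicle libraries; most cluster genes lie left of 0, between -2.28 and 1.10, and the variants lie between -0.71 and 0.03.

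The cluster genes of H3, the histone whose tail carries many of the known regulatory modifications, had the lowest ratio of summed levels. Their sum was 1072 and 1035 normalised counts in LDE225 libraries, against 2753, 2738 and 1768 in vehicle libraries, a ratio of means of 0.436. H3c2 (ENSMUSG00000069267.2, chr13:23752267-23752886) had 59.4 and 54.1 in LDE225 libraries, against 307, 222 and 162 in vehicle libraries. Its groups were far apart, with vehicle 3 as the nearest vehicle library, and the log2 fold change was -1.95 ± 0.31 (SE; limma adjusted p = 0.111). H3c11 (chr13:21782960-21783370) had 82.7 and 71.0 in LDE225 libraries, against 227, 266 and 208 in vehicle libraries, a log2 fold change of -1.59 ± 0.22 (limma adjusted p = 0.0913). In H3c11 the 3 vehicle libraries were close together, within 208 and 266. The H3 genes with the highest mean counts were H3c13, H3c6, H3c7 and H3c3. H3c13, on chromosome 3, had 141 and 216 in LDE225 libraries, against 421, 360.2 and 222 in vehicle libraries (log2 fold change -0.89), so that its higher LDE225 library nearly met vehicle 3. H3c7 had 150.2 and 111 in LDE225 libraries, against 371, 337 and 204 in vehicle libraries (log2 fold change -1.18). H3c3 had 100.4 and 111 in LDE225 libraries, against 199, 373 and 198 in vehicle libraries (-1.21). H3c6 was the 1 H3 gene whose groups overlapped, with 187 and 143 in LDE225 libraries, against 334, 401 and 181 in vehicle libraries.

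H3f3a and H3f3b encode the same protein, the replacement H3, which is laid down outside DNA copying. H3f3a had 2249 and 2129 normalised counts in LDE225 libraries, against 2333, 2172 and 2002 in vehicle libraries. H3f3b had 4887 and 5367 in LDE225 libraries, against 4559.7, 5667 and 4926 in vehicle libraries. In both genes the groups overlapped and the means were nearly equal: the log2 fold changes were 0.02 ± 0.14 for H3f3a and 0.03 ± 0.17 for H3f3b, and over all alternatives they lay between -0.12 and 0.11. Set per kilobase of annotated exon, cluster genes made up 41.6% and 40.4% of the H3 level in LDE225 libraries, against 66.5%, 62.6% and 55.5% in vehicle libraries. Exons of all annotated transcripts were counted, 3504 bases for H3f3a and 1261 for H3c7, so the size of the shares depends on the annotation. The mean share was 41.0% ± 0.889 in LDE225 libraries (SD, n = 2) and 61.5% ± 5.58 in vehicle libraries (SD, n = 3). The 2 groups did not overlap, and no p is given because the share was chosen with the levels known.

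**Figure D3:**
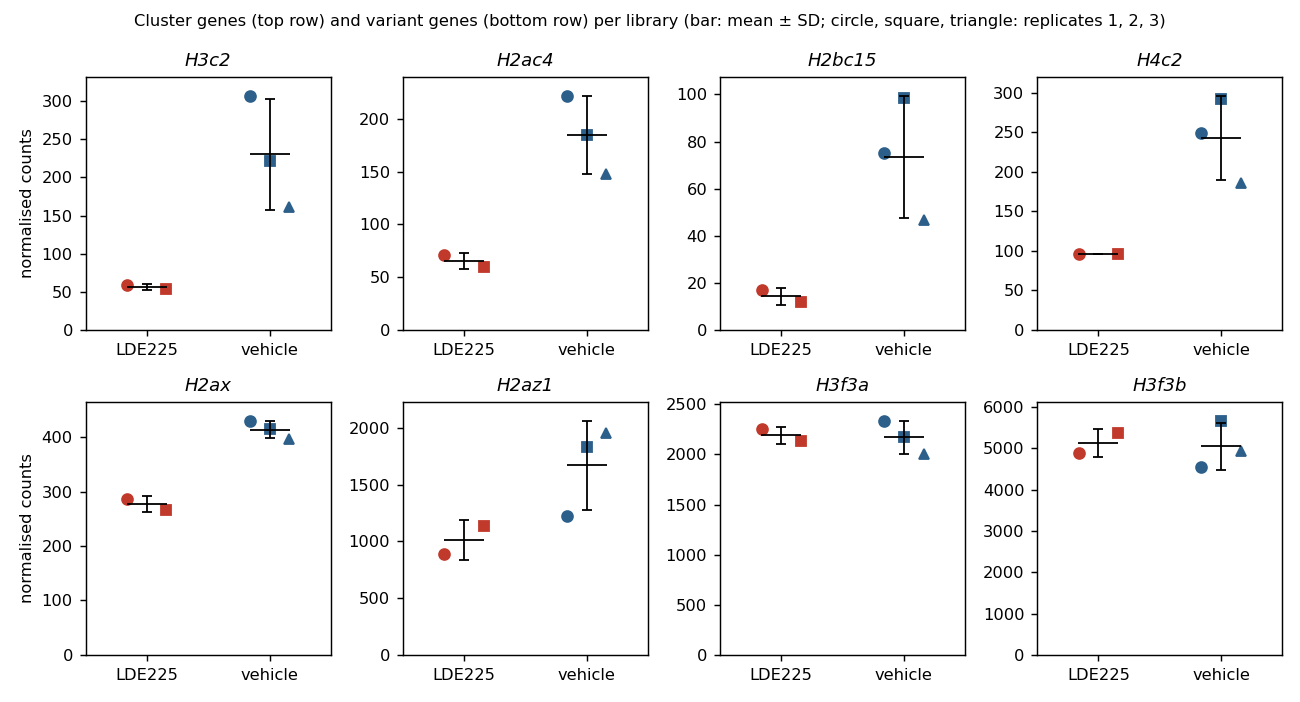
Normalised counts (y axes, from 0) of 4 cluster genes in the top row and 4 variants in the bottom row, 1 marker per library with the mean and SD. In the cluster genes and in H2ax and H2az1 both LDE225 libraries lie below all vehicle libraries, while in H3f3a and H3f3b, with 2129 to 2249 and 4887 to 5367 in LDE225 libraries, the groups overlap.

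H4, which forms a tetramer with H3, is made from many genes that encode the same protein. The sum of its cluster genes was 2351 and 2258 in LDE225 libraries, against 3461, 4221 and 2866 in vehicle libraries, a ratio of 0.655. H4c11 had 22.5 and 22.8 in LDE225 libraries, against 84.1, 110.1 and 50.1 in vehicle libraries (log2 fold change -1.73 ± 0.43, limma adjusted p = 0.200). H4c2 had 96.4 in both LDE225 libraries, against 249.8, 293 and 186 in vehicle libraries (-1.30 ± 0.25, limma adjusted p = 0.137). H4c1 had 149 and 214 in LDE225 libraries, against 328, 389 and 335 in vehicle libraries (-0.97). In these 3 genes the groups were well apart. H4c4 and H4c8 were nearer to equal. H4c4 had 394 and 361 in LDE225 libraries, against 519.9, 586 and 425 in vehicle libraries (-0.42). H4c8 had 333 and 337 in LDE225 libraries, against 547, 509.8 and 342 in vehicle libraries (-0.45). H4c14 was at the same level in both groups, with 182 and 206 in LDE225 libraries, against 167, 289 and 157 in vehicle libraries (-0.02 ± 0.30). H4f16, the only H4 gene on chromosome 6, likewise overlapped (-0.11).

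The H2A and H2B genes, whose proteins form a dimer that joins the nucleosome after H3 and H4, held the 2 lowest fold changes in the limma fit. Cluster H2A summed to 1418 and 1697 in LDE225 libraries, against 3164, 3527 and 2054 in vehicle libraries (ratio 0.534). Cluster H2B summed to 1238 and 1236 in LDE225 libraries, against 2459.5, 2607 and 1792 in vehicle libraries (ratio 0.541). H2ac11 (chr13:22042460-22042944) had the lowest of these, with 11.2 and 36.3 in LDE225 libraries, against 168, 145 and 44.3 in vehicle libraries (-2.28 ± 0.72, limma adjusted p = 0.278). Its second LDE225 library came close to vehicle 3, and without LDE225 1 the log2 fold change was -1.47. With edgeR, H2bc15 (-2.34) and Hist1h2br (-2.66) lay lower than H2ac11 (-2.32). H2bc15 (chr13:21754123-21754503) had 16.9 and 11.8 in LDE225 libraries, against 75.2, 98.5 and 46.6 in vehicle libraries (-2.23 ± 0.46, limma adjusted p = 0.154). H2ac13 had 43.4 and 27.9 in LDE225 libraries, against 209, 154 and 75.7 in vehicle libraries (-1.92). H2ac4 had 70.7 and 60.0 in LDE225 libraries, against 222, 184 and 148 in vehicle libraries (-1.47 ± 0.26, limma adjusted p = 0.135). A pair of the most counted genes of these classes were closer to equal. H2ac18 had 578 and 919.6 in LDE225 libraries, against 851, 1109 and 597 in vehicle libraries (-0.18), and its sign turned without LDE225 1 (0.15) or vehicle 2 (0.03). H2bc4 had 529 and 515 in LDE225 libraries, against 747, 661 and 623 in vehicle libraries (-0.37), a small difference in which the groups still did not overlap. H2bc8 had 168 and 172 in LDE225 libraries, against 367, 432 and 221 in vehicle libraries (-0.94). H2ac20 overlapped slightly, with 87.6 and 128 in LDE225 libraries, against 127, 214 and 174 in vehicle libraries (-0.66). H2bc21, at low counts, had 32.1 and 22.8 in LDE225 libraries, against 48.4, 14.5 and 14.0 in vehicle libraries (0.32 ± 0.68).

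Linker histone H1 compacts chromatin, and its 5 tested cluster genes differed among themselves. H1f1 had 63.5 and 46.5 in LDE225 libraries, against 223, 189 and 121 in vehicle libraries (-1.65, limma adjusted p = 0.149). H1f5 had 45.0 and 150.4 in LDE225 libraries, against 246, 455 and 171 in vehicle libraries (-1.69). Without LDE225 1 the value of H1f5 was -0.83, and without LDE225 2 it was -2.55. H1f3 was at -1.26. In H1f2, the H1 gene with the highest counts, the groups overlapped, with 697 and 1231 in LDE225 libraries, against 666, 2291 and 996 in vehicle libraries (-0.31), and its sign turned without LDE225 1 (0.10) or vehicle 2 (0.18). H1f4 also overlapped, with 296 and 506 in LDE225 libraries, against 382, 951 and 424 in vehicle libraries (-0.47). The annotated H1f4 overlaps H2bc6 on the same strand, so reads may be divided between them; H2bc6 had 75.5 and 115 in LDE225 libraries, against 86.7, 349.6 and 157 in vehicle libraries (-0.85). Vehicle 2 was the highest library in H1f2, H1f4, H1f5 and H1f3. The summed H1 level was 1226 and 2105 in LDE225 libraries, against 1782, 4468 and 1971 in vehicle libraries, and the groups overlapped.

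Among the 7 variants, both LDE225 libraries lay below all vehicle libraries in 3, the H2A variants, where 15.2% of all genes did, while 0 of the 7 passed with limma, edgeR or DESeq2 and 2 were lower at an unadjusted limma p below 0.05 (5.71% of all genes). H2az1 encodes H2A.Z, which is found at gene starts. It had 885 and 1133 in LDE225 libraries, against 1223, 1832 and 1954 in vehicle libraries (-0.71 ± 0.24, limma adjusted p = 0.304). H2ax encodes H2A.X, which is phosphorylated beside DNA breaks. It had 287 and 266 in LDE225 libraries, against 429, 414 and 397 in vehicle libraries (-0.58 ± 0.15, limma adjusted p = 0.213). H2ax is also the 1 variant with a stem-loop, and its mRNA is known to occur with the stem-loop end as well as with a poly(A) tail. H2az2, the other H2A.Z gene, had 178 and 194 in LDE225 libraries, against 234, 224 and 231 in vehicle libraries (-0.30). The linker variants spread widely within the vehicle group. H1f0, the H1 of resting and differentiated cells, had 841 and 1239.9 in LDE225 libraries, against 740.4, 2259.5 and 1379 in vehicle libraries (-0.37 ± 0.45, limma adjusted p = 0.788). H1f10 had 46.6 and 51.6 in LDE225 libraries, against 35.7, 113 and 55.9 in vehicle libraries (-0.31). For both, vehicle 1 was the lowest of all 5 libraries and vehicle 2 the highest, and without vehicle 2 the sign turned (0.02 for H1f0 and 0.13 for H1f10).

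The symbol rule leaves out further histone genes of the table. Of 6 histone-like genes listed, Cenpa, which encodes the H3 variant of centromeres, was the 1 measured, and it had 105 and 126 in LDE225 libraries, against 215, 338 and 313 in vehicle libraries (-1.29 ± 0.25, limma adjusted p = 0.143, DESeq2 adjusted p = 0.00220). Macroh2a1, an H2A variant with a large extra domain, was taken up after its values were seen. It had 559.9 and 588 in LDE225 libraries, against 742, 939.5 and 877 in vehicle libraries (-0.56, limma adjusted p = 0.233). In Macroh2a2, H2aj and H2aw, also taken up afterwards, the groups overlapped (log2 fold changes of -0.31, -0.42 and -0.37).

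On the mean level of the cluster genes, the 3 vehicle libraries were spread more widely than the 2 LDE225 libraries. A range over 3 libraries tends to be wider than one over 2, and no test was made. Vehicle 3 was the lowest vehicle library for 46 of 59 cluster genes and the highest for 0. Vehicle 2 was the highest for 36 and vehicle 1 for 23. LDE225 1 lay below LDE225 2 for 30 of 59, close to an even split. On the mean log2(value + 1) level of the 59 cluster genes, centred on the 5 libraries, LDE225 libraries were at -0.67 and -0.60, against 0.53, 0.69 and 0.04 in vehicle libraries. The vehicle libraries held 7578822, 11194991 and 9319936 recovered reads. Both LDE225 libraries were deeper than every vehicle library, with 13671817 and 14083280, so depth and treatment cannot be told apart.

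Genes of the cell cycle were lower in the same libraries. Of 40 S phase genes, all 40 had a negative log2 fold change (49.6% of all genes), with a median of -0.68, and in 34 both LDE225 libraries lay below all vehicle libraries (15.2% of all genes). With limma or edgeR 0 passed, 20 were lower at an unadjusted p below 0.05 (5.71% of all genes) and DESeq2 called 5 lower (1.74% of all genes). Uhrf1, which keeps DNA methylation in place after copying, had 144 and 184 in LDE225 libraries, against 571, 512 and 388 in vehicle libraries (-1.57, limma adjusted p = 0.0958). Mcm5 and Mcm2, subunits of the replicative helicase, had log2 fold changes of -1.43 and -0.74. Of 24 mitosis genes, all 24 were negative, with a median of -1.33. With limma or edgeR 0 passed, 22 were lower at an unadjusted p below 0.05 and DESeq2 called 18 lower, beside the same 49.6%, 5.71% and 1.74% of all genes. Mki67, the proliferation marker, had a log2 fold change of -1.41 and the cyclins Ccnb2 and Ccna2 of -1.53 and -1.54. The mean level of the S phase list was -0.57 and -0.40 in LDE225 libraries, against 0.31, 0.41 and 0.25 in vehicle libraries. That of the mitosis list was -0.86 and -0.68 in LDE225 libraries, against 0.53, 0.66 and 0.35 in vehicle libraries. Vehicle 3 was thus the lowest vehicle library in all 3 lists, and nearest to the LDE225 libraries for the cluster histones. The part of cell cycling in the histone levels was not tested.

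**Figure D4:**
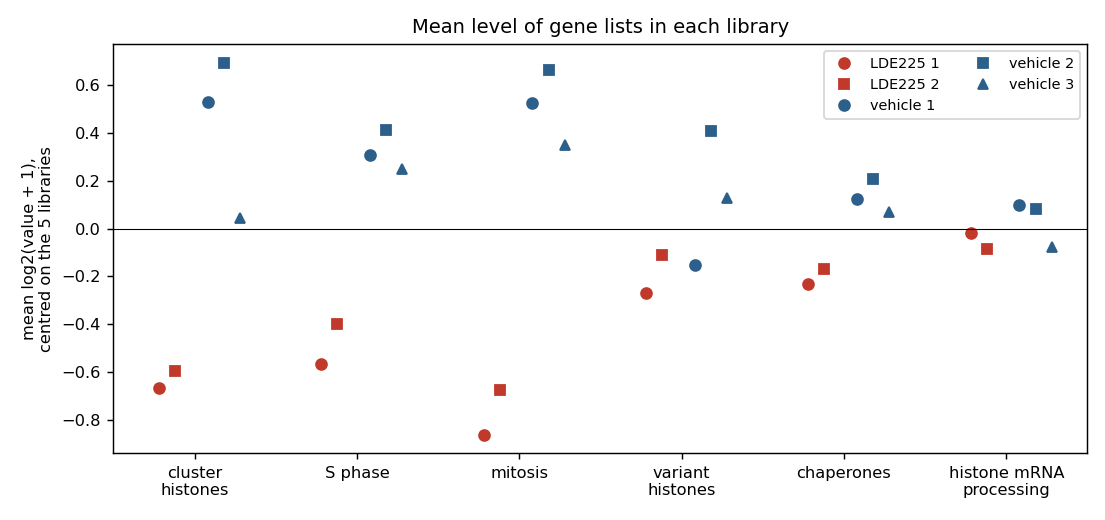
Mean log2(value + 1) of each gene list in each library, centred on the 5 libraries (y axis), with 1 marker per library. Cluster histones, S phase genes, mitosis genes and chaperones are lower in both LDE225 libraries than in all vehicle libraries, from -0.86 to -0.17 in LDE225 libraries, while the variants and the histone mRNA processing genes overlap.

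Genes that handle histone proteins and histone mRNA were less far apart. Of 31 tested genes of histone chaperones and deposition, 26 were negative, with a median of -0.24, and 15 had LDE225 libraries below all vehicle libraries (48.4%, where 15.2% of all genes did). With limma or edgeR 0 passed, 7 were lower at an unadjusted p below 0.05 (5.71% of all genes) and DESeq2 called 2 lower (1.74% of all genes). Those 2 were Chaf1a, a subunit of the complex that places H3 and H4 on newly copied DNA, and Npm1, a nucleolar histone chaperone. Chaf1a had 76.3 and 99.7 in LDE225 libraries, against 171, 223 and 158 in vehicle libraries (-1.05). Npm1 had 2157 and 2373 in LDE225 libraries, against 3307, 3328 and 3432 in vehicle libraries (-0.57). Hat1, which acetylates new H4, was at -0.65. Of 26 tested genes of histone mRNA transcription and processing, 22 were negative but small, with a median of -0.11; 4 had LDE225 libraries below all vehicle libraries (15.4%, beside 15.2% of all genes) and 1 was lower at an unadjusted p below 0.05 (beside 5.71% of all genes), so both counts were close to the share over all genes. limma, edgeR and DESeq2 called 0. The smallest unadjusted p values of that list belonged to the cleavage factors Cstf2 (-0.47) and Sympk (-0.29) and the cap-associated factor Srrt (-0.28). Slbp, the stem-loop binding protein, had 284 and 256 in LDE225 libraries, against 367, 245 and 259 in vehicle libraries (-0.08). Npat, the activator of cluster histone transcription, had 308 and 241 in LDE225 libraries, against 418, 301 and 257 in vehicle libraries (-0.23). In both the groups overlapped, and both were named after their values were seen.

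Markers of cell types in the sorted cells were read beside these values. The 7 fibroblast markers summed to 695352 and 748724 in LDE225 libraries, against 402906, 727024 and 757210 in vehicle libraries, with 1 of 7 negative and a median log2 fold change of 0.44; all 7 were detected. The 8 epithelial markers summed to 6148 and 2291 in LDE225 libraries, below all vehicle sums of 6899, 6239 and 6473. Of the 8, 6 were negative, and the median log2 fold change was -0.77. Epcam, against which the cells were sorted, had 687 and 78.6 in LDE225 libraries, against 325, 71.5 and 213 in vehicle libraries (0.45). Cdh1, the gene of E-cadherin and also sorted against, had 701 and 191 in LDE225 libraries, against 739, 530 and 561 in vehicle libraries (-0.72). The 8 leukocyte markers summed to 544 and 840.1 in LDE225 libraries, against 920.1, 342 and 585 in vehicle libraries. The 4 mesothelial markers summed to 3503 and 3359 in LDE225 libraries, against 9375, 3524 and 4381 in vehicle libraries, and the 4 erythroid markers to 41.8 and 49.9 in LDE225 libraries, against 139, 369.8 and 57.1 in vehicle libraries, all 4 of each list negative. The endothelial, pericyte and acinar sums overlapped between groups. No tested marker passed the limma threshold, and the part of other cell types in the histone levels was not tested.

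Near-identical copies limit what can be said of single cluster genes. The share of a gene's 100-base windows that occur in another histone gene was at least 50% for 23 cluster genes, whose median log2 fold change was -1.47, and under 50% for 36 tested ones, with a median of -0.97. The genes Hist1h2bq and Hist1h2br have the same coding sequence. Hist1h2bq was at 82.7 and 74.4 in LDE225 libraries, against 0, 298 and 169 in vehicle libraries, and Hist1h2br at 17.7 and 22.8 in LDE225 libraries, against 321, 2.90 and 64.1 in vehicle libraries. Vehicle 1 thus had all of its counts on one copy and vehicle 2 nearly all on the other, and the fold changes of the single copies (1.10 ± 2.29 and -1.04 ± 1.66) are uncertain. Added together, the pair had 100.4 and 97.2 in LDE225 libraries, against 321, 301 and 233 in vehicle libraries (-1.51 ± 0.22, limma adjusted p = 0.0924). Hist1h2ao and Hist1h2ap together had 137 and 146 in LDE225 libraries, against 482, 437 and 282 in vehicle libraries (-1.45). H2ac18 and H2ac19 together had 857 and 1088 in LDE225 libraries, against 1185, 1725 and 989 in vehicle libraries (-0.39). Hist1h4m and Hist1h4n together had 611 and 528 in LDE225 libraries, against 747, 961 and 628 in vehicle libraries (-0.43), so the near-equal level of Hist1h4n by itself (0.03) cannot be told from a division of shared reads. Summing the copies was chosen after seeing the data.

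**Figure D5:**
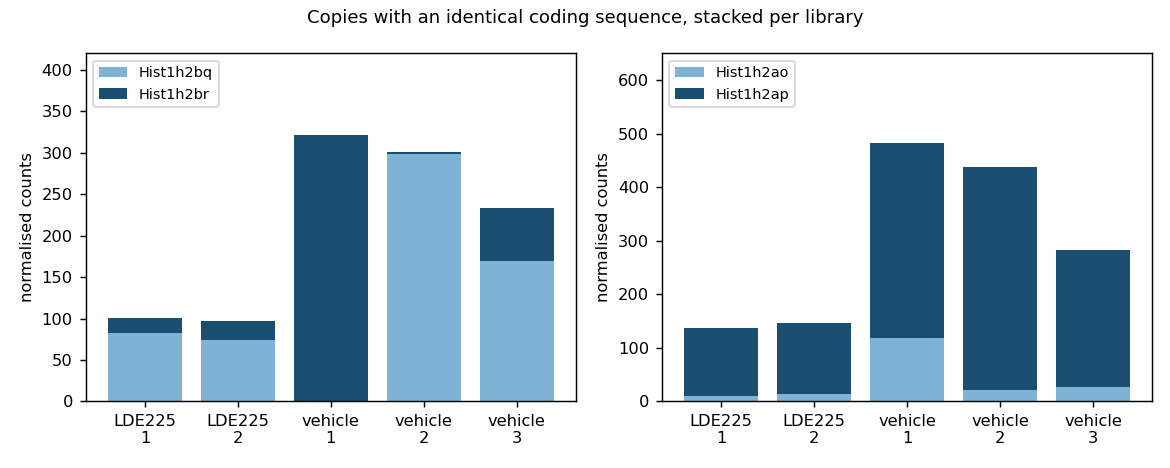
Normalised counts per library (y axis, from 0) of 2 pairs of copies with an identical coding sequence, stacked. The division between Hist1h2bq and Hist1h2br differs from library to library, but the sums of 100.4 and 97.2 in LDE225 libraries lie below the vehicle sums of 321, 301 and 233, and the same holds for Hist1h2ao and Hist1h2ap.

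Position and transcript ends were compared as properties that the choice by symbol did not use. The cluster genes lie in 2 groups on chromosome 13 and 1 on chromosome 3, with single genes on chromosomes 6 and 11. At chr13:21715763-22043676 the 22 tested genes had a median log2 fold change of -1.47, and at chr13:23531050-23764406 the 28 tested genes had one of -1.17. At chr3:96219865-96270132 the 8 tested genes had a median of -0.76. Among genes with a stem-loop, those whose annotated transcript ends under 200 bases past it (22 tested) had a median of -1.18, with groups apart in 19. Those annotated to end 200 bases or more past it (15 tested) had a median of -0.82, with groups apart in 8, where 15.2% of all genes had LDE225 libraries below all vehicle libraries. The order was the same at 100 bases (-1.18 and -0.85) and at 500 bases (-1.16 and -0.66). These are medians over genes that share libraries and sequence, and no test was made.

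Promoters are shown because members of a class share motifs there. For 56 of the 70 genes RefSeq (GRCm38.p6) gave 57 promoters of 300 bases, from 250 before to 50 after the start; the others (H2bc4, H2ax, H2bc21, H3c1, Hist1h2br, Hist1h4n, Hist1h4m, Hist1h2bq, Hist1h2bp, Hist1h2an, H4c14, Hist1h2ao, Hist1h2ap and H3c7) are named only. The motif CCAAT, the TATA box (searched as TATAAA) and the octamer (searched as ATTTGCAT) were looked for on both strands, and a promoter was counted once however many matches it held. CCAAT was in 44 of 51 cluster promoters (86.3%), where 37.4% of all 32851 promoters held it. It was in all 6 promoters of H1, 13 of H2A, 13 of H2B and 9 of H3 genes, and in 3 of 10 of H4 genes. The string TATAAA was in 29 of 51 cluster promoters (56.9%), where 13.6% of all held it. It was counted anywhere in the 300 bases, so a match need not be the TATA box of that gene. The octamer was in 5 of 13 H2A and 6 of 13 H2B promoters and in 0 of H1, H3 and H4, where 1.74% of all held it. The windows of some H2A and H2B genes overlap, so 1 match can be counted in both classes. The octamers of H2ac12 and H2bc12 are the same bases, as are those of H2ac8 and H2bc8. The 13 H2B promoters come from 12 genes, because H2bc6 had more than 1. Of the 6 variant promoters, 4 held CCAAT, 1 TATAAA and 1 the octamer. The median G+C content was 44.3% in cluster promoters and 72.7% in variant promoters, where that of all promoters was 52.7%. The lines below give the 200 bases before the RefSeq start of 1 gene per cluster class and of the variant H2az1, with the motifs in capitals. On the other strand CCAAT reads ATTGG, the TATA box reads TTTATA and the octamer reads ATGCAAAT.

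H1f5: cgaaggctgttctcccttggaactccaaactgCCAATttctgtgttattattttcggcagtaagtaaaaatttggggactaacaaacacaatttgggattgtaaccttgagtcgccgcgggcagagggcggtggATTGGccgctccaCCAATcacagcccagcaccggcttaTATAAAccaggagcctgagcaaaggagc
H2ac4: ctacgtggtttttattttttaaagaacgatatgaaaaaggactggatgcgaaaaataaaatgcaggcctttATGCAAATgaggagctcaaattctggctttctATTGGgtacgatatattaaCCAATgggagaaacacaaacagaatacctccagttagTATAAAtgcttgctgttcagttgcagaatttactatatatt
H2bc15: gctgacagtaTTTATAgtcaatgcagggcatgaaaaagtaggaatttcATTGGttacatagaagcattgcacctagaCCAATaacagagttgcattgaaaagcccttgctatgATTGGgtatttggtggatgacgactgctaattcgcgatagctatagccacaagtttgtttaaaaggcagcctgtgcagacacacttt
H3c11: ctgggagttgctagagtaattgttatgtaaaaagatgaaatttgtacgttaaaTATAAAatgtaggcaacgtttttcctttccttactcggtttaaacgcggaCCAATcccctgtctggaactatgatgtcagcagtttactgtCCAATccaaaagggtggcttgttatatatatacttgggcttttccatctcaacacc
H4c12: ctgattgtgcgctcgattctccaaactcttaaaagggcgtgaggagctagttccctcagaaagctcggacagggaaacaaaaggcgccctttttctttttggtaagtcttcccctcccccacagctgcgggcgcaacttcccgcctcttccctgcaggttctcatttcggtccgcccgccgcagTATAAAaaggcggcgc
H2az1: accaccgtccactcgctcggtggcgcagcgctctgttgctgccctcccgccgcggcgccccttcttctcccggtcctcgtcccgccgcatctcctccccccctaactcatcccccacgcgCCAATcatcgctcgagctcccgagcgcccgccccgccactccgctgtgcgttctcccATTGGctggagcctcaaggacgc

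These stretches are chr13:21780626-21780825 (H1f5, minus strand), chr13:23750888-23751087 (H2ac4, plus), chr13:21753876-21754075 (H2bc15, plus), chr13:21783398-21783597 (H3c11, minus), chr13:21750554-21750753 (H4c12, minus) and chr3:137864287-137864486 (H2az1, plus). By the GENCODE positions, that of H2bc15 lies between 2 genes that point away from each other. H2ac15 runs from 21753827 back to 21753435 on the minus strand, and H2bc15 begins at 21754123. By RefSeq, the 200 bases before the start of H2ac15 are chr13:21753913-21754112, so the stretch of H2bc15 reaches into H2ac15. H2ac15 and H2bc15 had log2 fold changes of -1.44 and -2.23, and in both the groups did not overlap. H4c12, whose stretch holds TATAAA but not CCAAT, was at -1.47, and H2ac4, whose stretch holds all 3 motifs, was also at -1.47. These are single genes: the median was -0.45 over the H4 cluster genes, and between -1.44 and -0.98 in the other cluster classes. Whether motifs and fold changes go together was not tested. A match is a string of letters in this window and not a measured binding site.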

How the data were processed

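RNA from sorted tumour fibroblasts was sequenced in 5 libraries, grouped by their titles. Per the submitters' processing notes, STAR 2.7.3, RSEM 1.2.29 and DESeq2 1.22.2 were used with GRCm38. The authors deposited 1 table of normalised counts per gene, a signal scaled by size factors and not raw counts. The kit marks strand, but no source used here gives the annotation release or how strand was treated in counting. Of the deposited values, 100.0% were whole multiples of the value of 1 read, within 0.001 reads, and whole reads were recovered from them. 3 columns without a header were not used. The 23 symbols turned into dates were restored from gene IDs, and all 70 histone IDs matched GENCODE release M21, which gave positions, transcripts and the cluster or variant class.

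Genes with a mean of at least 10 were tested on log2(value + 1) with limma 3.58.1 (R 4.3.3; mean trend, two-sided, Benjamini-Hochberg over 13183 genes, threshold 0.05). edgeR 4.0.16 and DESeq2 1.42.0 on recovered reads, other pseudocounts, filters and scalings, array weights, a replicate block and leaving out each library were alternatives. The deposited values do not rest on equal depth: 1 read was worth 0.803 and 0.845 in LDE225 libraries, against 1.27, 0.966 and 1.16 in vehicle libraries, and counts cover counting error only. The script was tested on simulated data. Every pair of libraries differed beyond counting error (chi-square over its degrees of freedom at least 21.5).

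The members and gene lists were chosen with earlier results of these data known. Named genes are every variant, the 4 most counted cluster genes of each class, the 4 members of highest and of lowest fold change, and the 3 of smallest p per list; other genes named were chosen after their values were seen.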

Additional observations from a re-analysis of the deposited data

How the results depend on the processing

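The median log2 fold change of the cluster genes stayed between -1.36 and -0.98 under all alternatives. Over all genes, the numbers past the threshold were 2 lower with the same total, 0 lower with no trend, 38 lower and 70 higher with array weights, 0 lower with edgeR, 230 lower and 300 higher with DESeq2, and, leaving out 1 library, 0 to 4 lower and 0 to 6 higher. Of histone genes, array weights called 2 lower and DESeq2 20. The median of the variants lay between -0.55 and 0.015 leaving out 1 library, with the ends without vehicle 1 and vehicle 2. Scaling to the same total moved the median of all genes to -0.13 and that of the cluster genes to -1.32. The stem-loop was found in 27 genes within 50 bases after the stop codon.

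The sign turned in the following genes. With the same total, the log2 fold change was -0.117 for H3f3a, -0.107 for H3f3b and -0.0989 for Hist1h4n; with quantile normalisation it was -0.0710 for H3f3a and -0.115 for H3f3b. Array weights gave -0.339 for Hist1h2bq and 0.0138 for Slbp. edgeR gave -0.993 for Hist1h2bq and -0.0255 for Hist1h4n, and DESeq2 gave -0.985 and -0.0275. Leaving out 1 library gave -0.789 to 0.0153 for H1f0, -0.687 to 0.131 for H1f10, -0.723 to 0.184 for H1f2, -0.516 to 0.154 for H2ac18 and -0.0407 to 0.0698 for H3f3a. It gave -0.0450 to 0.112 for H3f3b, -1.51 to 2.61 for Hist1h2bq, -2.78 to 0.406 for Hist1h2br, -0.113 to 0.315 for Hist1h4n and -0.192 to 0.0975 for Slbp. The cause was not tested.

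With the replicate block, 16 genes were higher and 5 lower, 0 of them histone genes, and H3f3a was at -0.0407 and Hist1h4n at -0.113. Same-numbered libraries deviated from their group means with correlations of 0.132 and -0.0174. The deviations of 2 LDE225 libraries mirror each other, so these values cannot show whether libraries were paired. With 2 LDE225 libraries, leaving out 1 assumes that the other varies like the vehicle libraries.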
